A study of Homo sapiens with 2 samples.

Results

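A set of 10 genes of the Notch pathway was followed in A673 cells: the receptors NOTCH1, NOTCH2 and NOTCH3, the ligands JAG1 and JAG2, the transcription factors HES1, HEY1 and HEY2, and the regulators DTX1 and NRARP. They were chosen by name, with earlier results of these data known, and all 10 were found among the 23352 genes of the deposited gene tables. A673 cells are a human Ewing sarcoma cell line, and their driving factor is the fusion protein EWS/FLI1. Cells with the lentiviral hairpin sh813 against RUNX3, a Runt-domain transcription factor, were set against cells with a non-target hairpin. Both populations bore the EWS/FLI1 fusion, had been given virus from HEK 293T cells with 6 µg/mL polybrene and had been selected with 0.4 µg/mL puromycin for 6 days. They were sequenced as poly(A) RNA with 1 library a group. A single hairpin was used against RUNX3, so an effect of RUNX3 and an effect of that hairpin on other transcripts cannot be told apart. Each title names its library as a pool, and what was pooled is not given in the sources used here. The labels disagree: in each library the title names the hairpin that the shRNA characteristic gives to the other. The libraries are called 813 and NT here after their titles, and going by the characteristics would turn every direction round.

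Notch signalling passes between touching cells. A ligand of the Jagged or Delta kind on the surface of a cell binds a Notch receptor on its neighbour, the receptor is cut by an ADAM protease and then by gamma-secretase, and its freed intracellular part enters the nucleus, where it joins the DNA-binding protein RBPJ and a Mastermind coactivator. The best known direct targets are the HES and HEY genes, which encode repressors, and NRARP, whose product binds the intracellular receptor and dampens the signal. In Ewing sarcoma cells, EWS/FLI1 has been described to hold down JAG1 and HEY1. That is background from the field and not a result of these files.

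RBPJ recognises the core letters TGGGAA, and the promoter of HES1 is a textbook example of a promoter that it binds. The deposited files hold no sequence, so promoter windows were read from RefSeq (GRCh38.p14), which had 8 of the 10 genes. DTX1 was not among them, so its promoter was not searched. Shown here are the 250 bases before the start of HES1, NRARP and JAG1. HES1 was taken as the member with the highest level per length. NRARP was taken as a Notch target with a lower level in the 813 library, and JAG1 as the ligand whose level was higher there. Capitals mark TGGGAA on either strand.
HES1, chr3:194135898-194136147, plus strand: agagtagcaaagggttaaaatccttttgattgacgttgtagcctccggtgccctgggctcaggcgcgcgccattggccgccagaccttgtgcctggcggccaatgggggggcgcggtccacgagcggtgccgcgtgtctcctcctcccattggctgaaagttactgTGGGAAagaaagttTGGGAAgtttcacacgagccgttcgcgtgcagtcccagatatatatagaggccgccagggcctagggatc
NRARP, chr9:137302272-137302521, minus strand: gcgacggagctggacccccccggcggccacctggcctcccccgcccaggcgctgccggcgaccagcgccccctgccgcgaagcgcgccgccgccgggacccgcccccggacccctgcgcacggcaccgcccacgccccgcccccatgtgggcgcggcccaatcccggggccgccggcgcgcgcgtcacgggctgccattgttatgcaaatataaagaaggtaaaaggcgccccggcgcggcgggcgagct
JAG1, chr20:10674000-10674249, minus strand: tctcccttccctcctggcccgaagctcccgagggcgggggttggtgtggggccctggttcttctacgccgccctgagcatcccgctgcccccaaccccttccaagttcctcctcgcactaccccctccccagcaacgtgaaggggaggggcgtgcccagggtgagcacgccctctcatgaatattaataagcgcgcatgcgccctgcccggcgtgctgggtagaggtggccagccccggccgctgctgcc

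The HES1 promoter held TGGGAA beginning 84 and 70 bases before the start, and the NRARP and JAG1 stretches held none. Over the whole window, which runs from 250 bases before the start to 50 after it, 2 of the 8 members had the letters, HES1 and HEY2, against 24.0% of 35116 promoters in the table. The RUNX core TGTGGT was present in 0 of the 8 windows, against 13.1% of all promoters. The E-box CACGTG and the ETS repeat GGAAGGAA were present in 0 of the 8, against 7.26% and 3.67% of all promoters. All motifs were searched on both strands. The letters of RBPJ and of the ETS repeat share GGAA and can overlap, which occurred in none of the 8 windows. A match or its absence describes these letters in this window only.

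The gene tables held 23342660 read pairs in the 813 library and 24326135 in the NT library, and levels are given as CPM, the pair count scaled to the TMM library size. RUNX3, the targeted gene, had 387 pairs (15.8 CPM) in the 813 library and 1391 pairs (59.9 CPM) in the NT library, a log2 fold of -1.92 (-2.09 to -1.76), which goes with the titles and against the characteristics. Each value is followed by its exact 95% binomial interval, which holds counting error alone. With 1 library a group there was no replicate check and no test, and whether the spread of the groups would overlap is not known. All 8 Ewing sarcoma markers were measured, with a summed level of 6690 CPM in the 813 library and 6151 CPM in the NT library. Most of it was CD99, with 4026 CPM in the 813 library and 3808 CPM in the NT library. NKX2-2 and NR0B1 were called lower in the 813 library, at log2 folds of -1.43 and -1.11. STEAP1 at -0.83, EWSR1 at -0.18, CD99 at 0.08, PRKCB at 0.15, FLI1 at 0.61 and CCND1 at 0.62 were not called. Markers of HEK 293T cells, in which the virus was made, summed to 8.63 CPM in the 813 library and 12.5 CPM in the NT library, with LHX1 at 0 in both libraries and PAX2 at 0 pairs in the 813 library and 1 in the NT library. GATA3 was the called gene among them, lower with 33 pairs in the 813 library and 93 in the NT library, while NEFL had 73 pairs in the 813 library and 122 in the NT library and NEFM had 105 in the 813 library and 75 in the NT library. Of 6 endothelial markers, which summed to 3.60 CPM in the 813 library and 1.68 CPM in the NT library, TEK was at 0 in both libraries, CDH5 had 2 pairs in the 813 library and 8 in the NT library, and KDR was higher, with 52 pairs in the 813 library and 5 in the NT library. The 5 leukocyte markers summed to 43.3 CPM in the 813 library and 26.0 CPM in the NT library. Among them CD3E was at 0 in both libraries, and PTPRC had 0 pairs in the 813 library and 1 in the NT library. LCP1 was higher with 754 pairs in the 813 library and 316 in the NT library. CD68 had 274 pairs in the 813 library and 272 in the NT library, CD14 had 30 and 14, and neither was called. Of 6 fibroblast markers, 5 were measured, and they summed to 3181 CPM in the 813 library and 2596 CPM in the NT library, most of it COL1A2, with PDGFRA at 3 pairs in the 813 library and 4 in the NT library and none called. PDGFRB differed most of the measured ones, with 384 CPM in the 813 library and 207 CPM in the NT library, a log2 fold of 0.89. In bulk RNA, fewer cells of a type and less RNA per cell cannot be told apart.

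The Notch genes did not move as a group. HEY1 was higher in the 813 library, DTX1 and NRARP were lower, and the other measured genes differed by less than 2-fold in either direction. Genes that reached 1 CPM in either library counted as measured, and a call needed a 2-fold difference whose interval lay beyond 1.5-fold. HEY2 was not measured by this rule, and of the other 9 members 1 was higher and 2 were lower. Over all 12254 measured genes, 8.13% were higher and 3.48% lower, 11.6% in all. The median log2 fold of the 9 members was -0.29, with 3 above and 6 below 0, beside a median of 0.01 over all measured genes. At a milder rule, 1.5-fold with the interval beyond no difference, JAG1 joined HEY1 as higher and NOTCH3 joined DTX1 and NRARP as lower, 5 of 9 against 31.0% of all measured genes (19.8% higher and 11.2% lower). At a stricter rule, 3-fold with the interval beyond 2-fold, HEY1 and DTX1 were called, 2 of 9 against 3.65% of all measured genes (2.54% higher and 1.11% lower).

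**Figure D1:**
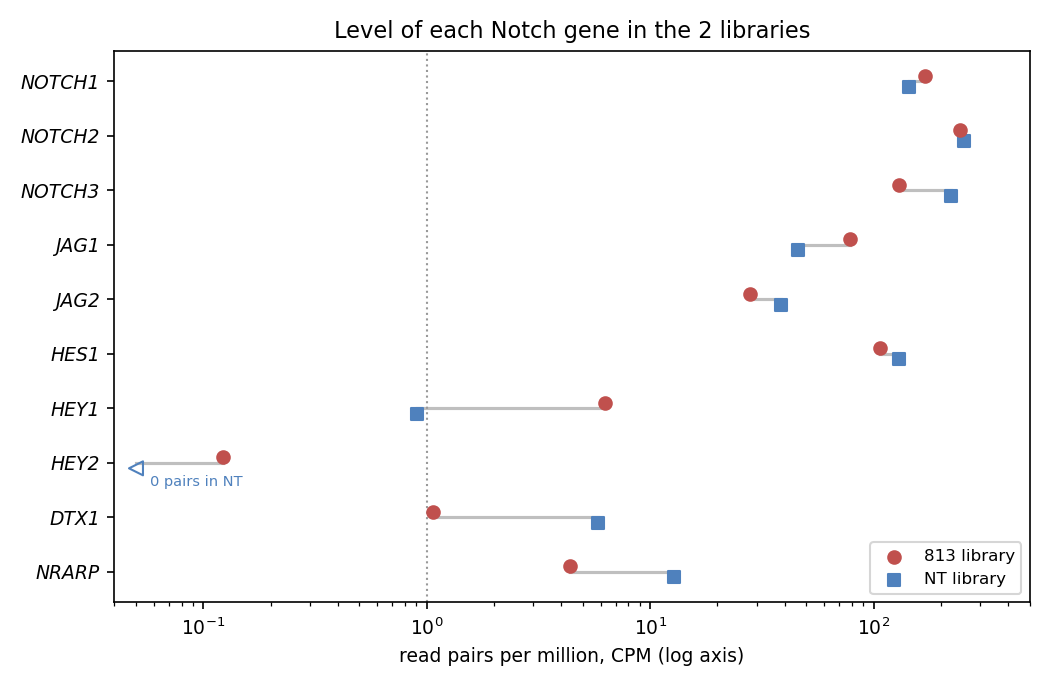
Level of each of the 10 Notch genes in CPM (log axis), with a red circle for the 813 library and a blue square for the NT library; the dotted line is at 1 CPM, and HEY2 with 0 pairs in the NT library is drawn as an open triangle at the left edge. The receptors and HES1 lie between 107 and 254 CPM, while HEY1, DTX1 and NRARP lie at 12.8 CPM or less and show the widest gaps.

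Among the receptors, which carry the signal into the nucleus, NOTCH3 was the one that differed most. NOTCH3 (chr19:15270444-15311792 in hg19) had 3176 pairs (130 CPM) in the 813 library and 5177 pairs (223 CPM) in the NT library. Its log2 fold was -0.78 (-0.84 to -0.72), so the level in the NT library was 1.72 times that in the 813 library. It did not pass the 2-fold rule. NOTCH1 (chr9:139388896-139440238) had 4154 pairs (170 CPM) in the 813 library and 3338 pairs (144 CPM) in the NT library, a log2 fold of 0.24 (0.17 to 0.31). NOTCH2 (chr1:120454176-120612317) had 5953 pairs (243 CPM) in the 813 library and 5905 pairs (254 CPM) in the NT library, a log2 fold of -0.06 (-0.12 to -0.01) whose direction turned to 0.07 with plain library totals. NOTCH1 and NOTCH3 thus lay on opposite sides of no difference, and NOTCH2 lay close to it. NOTCH2NL copies the 5′ end of NOTCH2, so reads there could be split between the copies. Without the 5 exon records nearest the 5′ end, the NOTCH2 log2 fold was -0.06.

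The order of the receptors by level per length differed between the libraries. In the authors' RPKM, reads scaled to gene length and library total, NOTCH2 had 16.5, NOTCH1 14.7 and NOTCH3 12.9 in the 813 library. In the NT library, NOTCH3 had 20.3 RPKM, NOTCH2 15.8 and NOTCH1 11.4. The summed RPKM of these receptors was 44.2 in the 813 library and 47.5 in the NT library. NOTCH3 made up 29.3% of it in the 813 library and 42.8% in the NT library, and NOTCH1 made up 33.3% in the 813 library and 23.9% in the NT library. The ratio of NOTCH1 to NOTCH3 was 2.03 times as large in the 813 library as in the NT library (1.903 to 2.16), a value that no library scaling can change. The same comparison of NOTCH2 to NOTCH3 gave 1.64 (1.55 to 1.74), and that of NOTCH1 to NOTCH2 gave 1.23 (1.16 to 1.31). With a trend on GC content and transcript length taken out, an alternative added after seeing the data, NOTCH1 to NOTCH3 gave 2.001, NOTCH2 to NOTCH3 gave 1.18 and NOTCH1 to NOTCH2 gave 1.69, so the last 2 ratios left their intervals.

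The Jagged ligands also lay on opposite sides. JAG1 (chr20:10618332-10654694), the ligand described as held down by EWS/FLI1, had 1928 pairs (78.8 CPM) in the 813 library and 1065 pairs (45.9 CPM) in the NT library. Its log2 fold was 0.78 (0.67 to 0.89), a level 1.72 times that of the NT library, below the 2-fold rule. JAG2 (chr14:105608076-105635161) had 686 pairs (28.0 CPM) in the 813 library and 894 pairs (38.5 CPM) in the NT library, a log2 fold of -0.46 (-0.60 to -0.31). In RPKM the ligands were nearly level in the NT library and apart in the 813 library. JAG1 had 10.6 RPKM and JAG2 4.44 in the 813 library, against 5.63 for JAG1 and 5.58 for JAG2 in the NT library. JAG1 was 70.4% of the summed Jagged RPKM in the 813 library and 50.3% in the NT library. The ratio of JAG1 to JAG2 was 2.36 times as large in the 813 library (2.08 to 2.68), and 1.71 times with the trend taken out, below that interval.

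**Figure D2:**
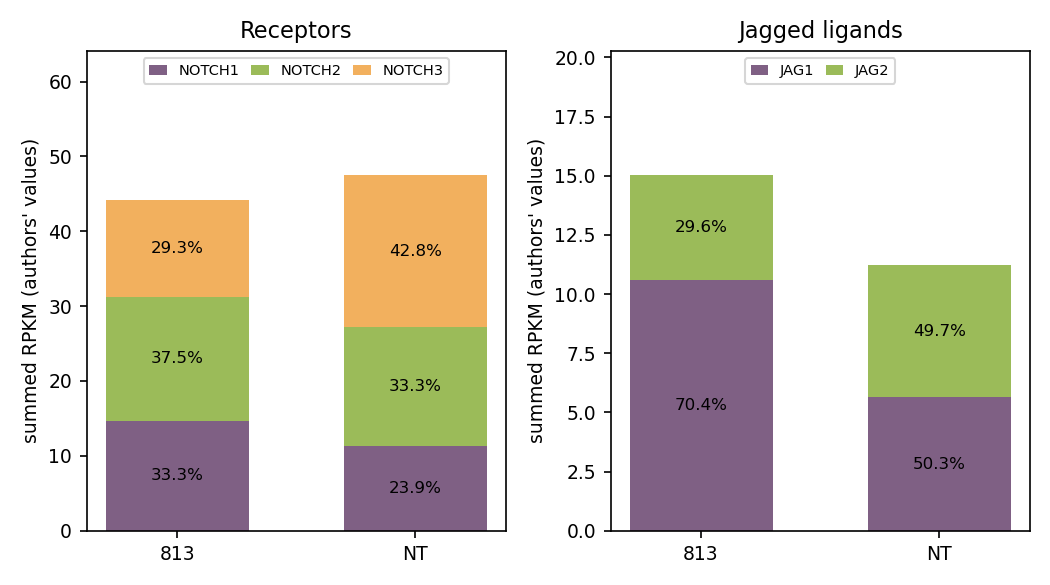
Summed RPKM of the receptors NOTCH1, NOTCH2 and NOTCH3 and of the ligands JAG1 and JAG2 in the 813 library and the NT library, with each gene's share of its bar. NOTCH3 takes 29.3% of the receptor bar in the 813 library and 42.8% in the NT library, and JAG1 takes 70.4% of the ligand bar in the 813 library and 50.3% in the NT library.

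The NOTCH3 and JAG1 differences ran along the whole length of the genes. An exon record was used with 50 or more reads over both libraries. Every one of the 33 NOTCH3 records was lower in the 813 library, with log2 folds from -1.32 to -0.41 and a median of -0.82, and 30 of them had intervals wholly below 0. Every one of the 26 JAG1 records was higher, from 0.25 to 1.28 with a median of 0.88, and 20 had intervals wholly above 0. Of 34 NOTCH1 records, 29 were above 0 and 5 below, in a range from -0.19 to 0.55. Of 35 NOTCH2 records, 12 were above 0 and 23 below, in a range from -0.33 to 0.33. Of 24 JAG2 records, 2 were above 0 and 22 below. Over all members, among records of that depth, 140 of 159 records had the direction of their gene. The direction of a gene comes from largely the same reads, so that count is no independent check. No record of that depth differed 2-fold or more from the rest of its gene with intervals that did not overlap. Such a departure was found in 0.423% of 92852 exon records over all genes. The only exon record of NRARP has no other record to be set against. It is counted among the 159 but is not part of the statement on departures.

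**Figure D3:**
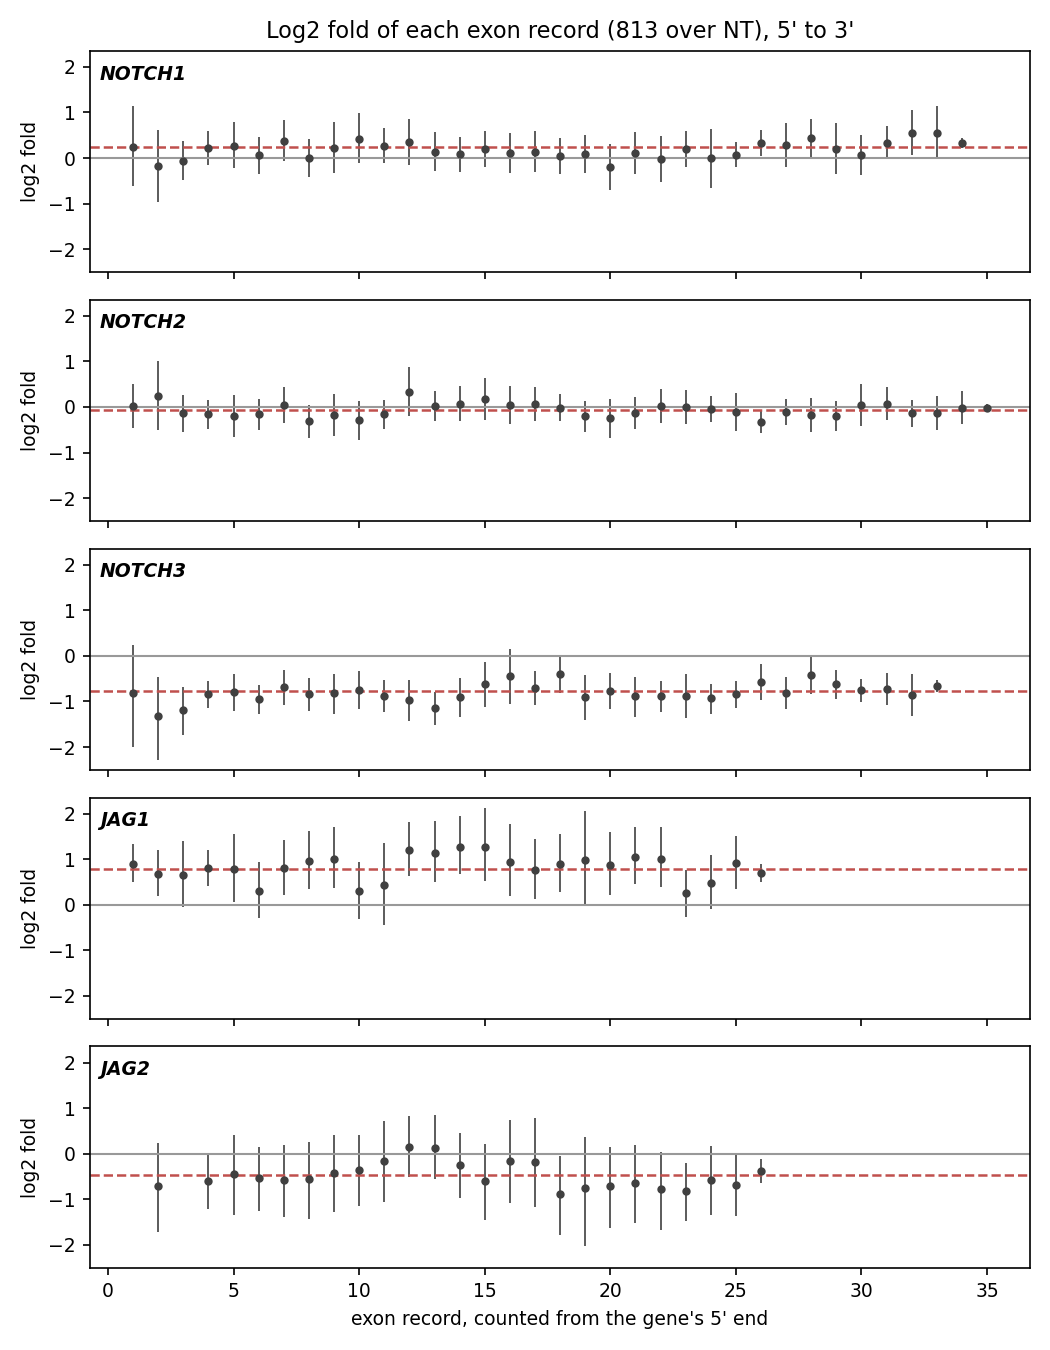
Log2 fold of each exon record (813 library over NT library) of NOTCH1, NOTCH2, NOTCH3, JAG1 and JAG2, numbered from the 5′ end of the gene, with 95% counting intervals, the gene-level log2 fold as a red dashed line and no difference as a grey line. All 33 NOTCH3 points lie below 0 and all 26 JAG1 points above 0, while NOTCH2 points scatter between -0.33 and 0.33.

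The target genes of the pathway split in the same uneven way. HES1 (chr3:193853931-193856401), whose repressor product is the most widely used readout of Notch activity, had 2607 pairs (107 CPM) in the 813 library and 3027 pairs (130 CPM) in the NT library. Its log2 fold was -0.29 (-0.37 to -0.21), and its 4 exon records gave -0.30 to -0.24. With plain totals and with the authors' RPKM the log2 fold was -0.16, outside the counting interval. HES1 had 58.7 RPKM in the 813 library and 65.6 in the NT library, above 90.3% of the measured genes in the 813 library and 91.0% in the NT library.

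HEY1 (chr8:80676245-80680098), a related repressor of the Hairy/enhancer-of-split family with a YRPW motif, had 154 pairs (6.30 CPM) in the 813 library and 21 pairs (0.905 CPM) in the NT library. Its log2 fold was 2.77 (2.14 to 3.53), a level 6.82-fold higher in the 813 library, and it ranked 54th from the highest of the 12254 measured genes. All 6 of its exon records, 2 of which overlap and share reads, had more reads in the 813 library, although 1 alone reached 50 reads over both libraries. The 3′ exon had 221 reads in the 813 library and 33 in the NT library, and an exon of 82 bases had 34 in the 813 library and 0 in the NT library. HEY1 remained a minor member by level per length, at 2.20 RPKM in the 813 library and 0.289 in the NT library. That was 3.61% of the summed RPKM of HES1, HEY1 and HEY2 in the 813 library and 0.438% in the NT library. The endothelial marker KDR was higher in the 813 library as well, with 2.13 CPM in the 813 library and 0.215 CPM in the NT library. The other endothelial markers were not called. In the 813 and NT libraries, PECAM1 had 28 and 18 pairs and TIE1 had 1 and 0. VWF had 5 and 8 pairs, CDH5 had 2 and 8, and TEK had 0 in both. Whether KDR or these markers had a part in the HEY1 difference was not tested. HEY2 (chr6:126070732-126082415), the closest relative of HEY1, had 3 pairs in the 813 library and 0 in the NT library. A count of 0 there allows a level of up to 0.129 CPM, so no fold is given and a difference was not detectable at this depth.

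NRARP and DTX1, which act on the signal itself, were both lower. NRARP (chr9:140194083-140196703), the ankyrin-repeat protein that binds the receptor's intracellular part, had 107 pairs (4.37 CPM) in the 813 library and 297 pairs (12.8 CPM) in the NT library. Its log2 fold was -1.54 (-1.88 to -1.22), with the level in the NT library 2.92 times that in the 813 library. DTX1 (chr12:113495662-113535833), a Deltex ubiquitin ligase that binds the ankyrin repeats of Notch, had 26 pairs (1.06 CPM) in the 813 library and 135 pairs (5.82 CPM) in the NT library. Its log2 fold was -2.43 (-3.12 to -1.84), the 23rd lowest of all measured genes. All 9 DTX1 exon records had fewer reads in the 813 library, and here too 1 alone reached 50 reads. The 3′ record had 34 reads in the 813 library and 120 in the NT library, and the 5′ record had 2 in the 813 library and 43 in the NT library. The log2 fold was -2.88 (-3.97 to -2.04) over the 8 records before the 3′ one and -1.87 (-2.77 to -1.10) in it. These intervals overlap.

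**Figure D4:**
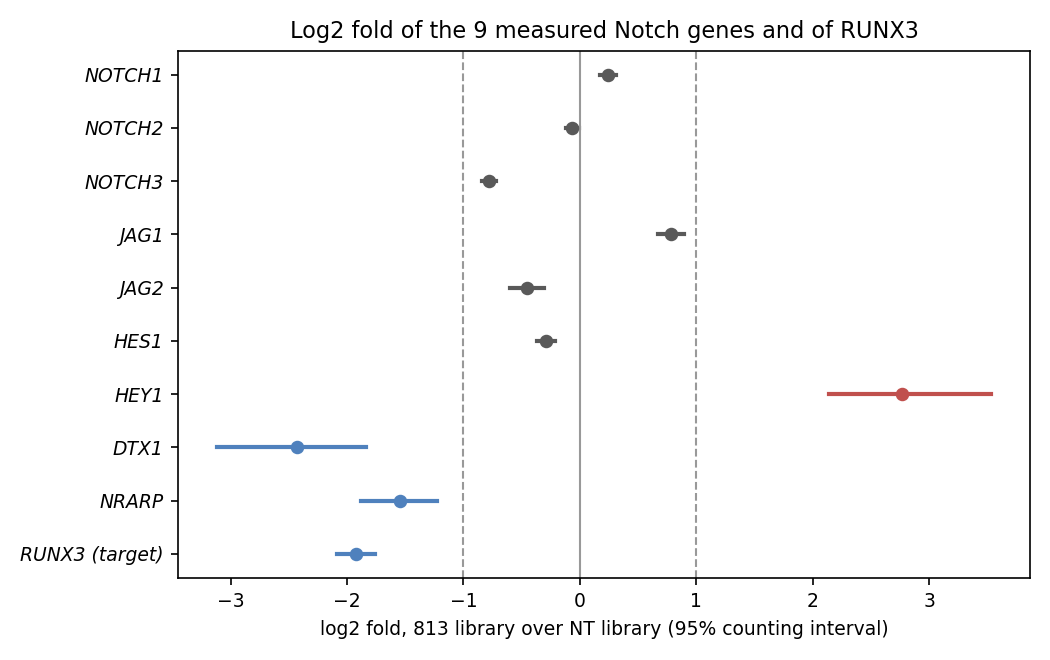
Log2 fold (813 library over NT library) of the 9 measured Notch genes and of the targeted gene RUNX3, with 95% counting intervals; dashed lines mark 2-fold, red marks a gene called higher, blue a gene called lower and grey neither. HEY1 stands at 2.77, and DTX1 and NRARP stand at -2.43 and -1.54, on either side of the other members.

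The rest of the pathway, a list of 59 further genes chosen by role, was also mixed. Of the 50 that were measured, 6 were higher and 5 lower in the 813 library, 22.0% against 11.6% of all measured genes. Their median log2 fold was 0.22, beside 0.01 over all measured genes. Calls in both directions were present in 4 of the 6 roles. With the trend on GC content and transcript length taken out, 4 genes of the list were higher and 2 lower. By that setting 667 genes were higher and 274 lower among 11022 in all, against 996 and 427 among 12254 before. The share of the list that was called then lay nearer to that of all genes. Calls in both directions then remained in the ubiquitin and trafficking role alone. HEYL, the third gene of the HEY family, had 376 pairs (15.4 CPM) in the 813 library and 71 pairs (3.06 CPM) in the NT library, a log2 fold of 2.32 (1.96 to 2.72) in the direction of HEY1. HES6, which encodes an atypical HES protein, had 825 pairs in the 813 library and 1747 in the NT library, with a log2 fold of -1.16 (-1.28 to -1.04). In the same role HES4 had a log2 fold of -0.21 (-0.42 to -0.004) and HES7 of 0.22 (-0.38 to 0.84), and HES5 had 3 pairs in the 813 library and 0 in the NT library.

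Of 7 further receptor and ligand genes, NOTCH4 among them, 5 were measured and 1 passed. DLK2, a non-canonical ligand-like membrane protein, was lower with 23 pairs in the 813 library and 70 in the NT library, a log2 fold of -1.66 (-2.43 to -0.98). DLL3, the highest of them in mean RPKM, had 109 pairs in the 813 library and 86 in the NT library (0.26, -0.15 to 0.69), and DLL4 had 12 pairs in the 813 library and 9 in the NT library, under 1 CPM in both libraries. Of the 4 measured enzymes that add sugars to the receptor, POGLUT1, which puts glucose on its EGF repeats, was higher with 247 pairs in the 813 library and 66 in the NT library (log2 fold 1.82, 1.43 to 2.24). POFUT1, the fucosyltransferase with the highest mean RPKM of the role, had 5701 pairs in the 813 library and 4364 in the NT library (0.31, 0.25 to 0.37).

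All 9 cleavage genes were measured. ADAM10, the protease of the first ligand-induced cut, was higher with 175 pairs in the 813 library and 81 in the NT library (1.03, 0.65 to 1.43). Among the subunits of gamma-secretase, APH1B was higher with 340 pairs in the 813 library and 133 in the NT library (1.28, 0.99 to 1.58) and the catalytic subunit PSEN2 was lower with 149 pairs in the 813 library and 344 in the NT library (-1.28, -1.57 to -1.001). APH1A, the more abundant counterpart of APH1B, had a log2 fold of -0.35 (-0.39 to -0.31). Once a trend on GC content and transcript length was taken out, ADAM10 at 0.66 and APH1B at 0.86 were no longer called, and PSEN2 at -1.05 still was. The ADAM10 call also ended with a prior of 5 pairs.

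Of 12 ubiquitin and trafficking genes, 1 was higher and 1 lower, both of the Deltex family. DTX3L had 555 pairs in the 813 library and 139 in the NT library, with a log2 fold of 1.92 (1.65 to 2.20), and DTX4 had 48 pairs in the 813 library and 191 in the NT library, -2.06 (-2.56 to -1.605), in the direction of DTX1. DTX3, the most abundant of them per length, had 1623 pairs in the 813 library and 1897 in the NT library (-0.30, -0.40 to -0.20). Of 16 measured nuclear genes, the coactivator MAML2 was higher with 62 pairs in the 813 library and 19 in the NT library (1.60, 0.87 to 2.455), and the corepressor CTBP1 was lower with 3898 pairs in the 813 library and 8752 in the NT library (-1.24, -1.30 to -1.19). RBPJ itself had 161 pairs in the 813 library and 140 in the NT library, with a log2 fold of 0.13 (-0.21 to 0.46), and HDAC1, the highest in RPKM, had -0.15 (-0.20 to -0.11). Taking out the same trend on GC content and length also ended the calls of CTBP1 at -0.92 and HES6 at -0.65, which fell short of 2-fold, and of MAML2 at 1.16 and DLK2 at -1.20, whose intervals then reached inside 1.5-fold. It added LFNG, a fringe glycosyltransferase, as higher at 1.21, against 0.89 before, and LFNG was also called with plain totals and with the authors' RPKM. It turned the direction of HES4 to 0.40, of DTX3 to 0.03 and of RBPJ to -0.08.

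**Figure D5:**
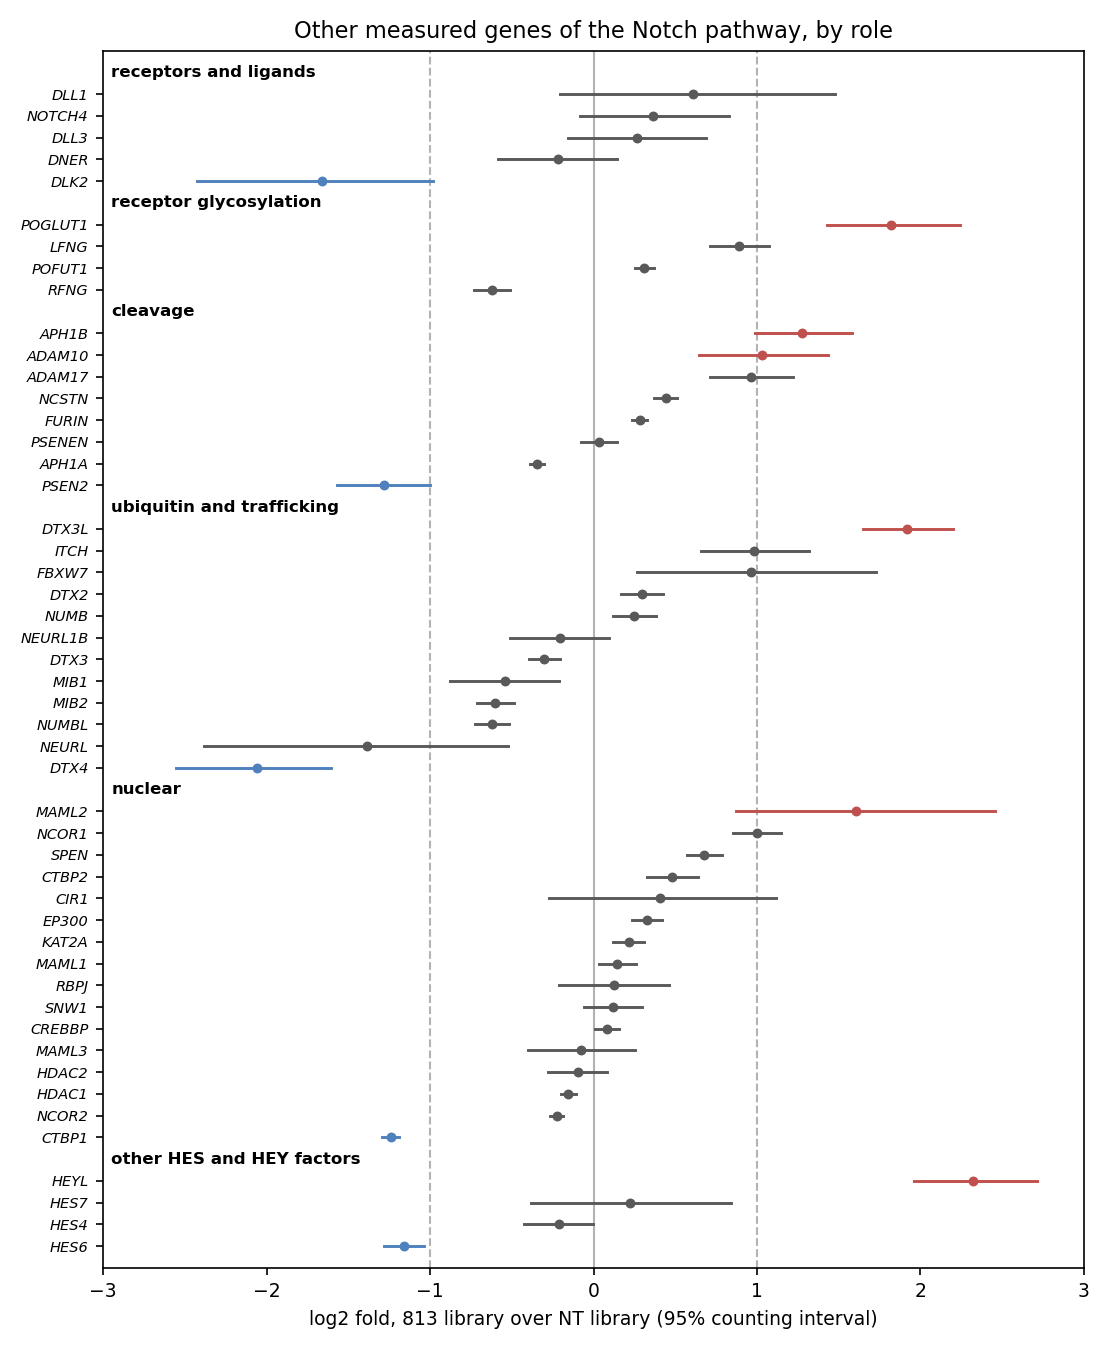
Log2 fold (813 library over NT library) of 49 of the 50 measured genes of the wider Notch list by role, with 95% counting intervals; dashed lines mark 2-fold, red marks a gene called higher, blue a gene called lower and grey neither. Red and blue points are mixed: HEYL at 2.32 and DTX3L at 1.92 are the farthest to the right, and DTX4 at -2.06 is the farthest to the left.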

How the data were processed

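Poly(A) RNA of A673 cells was measured in 2 libraries, grouped by their titles, and the RUNX3 level moved no library. The submitters' processing notes name CASAVA 1.9, TopHat2 2.0.6, HTSeq and the build hg19, without a role or order. For the annotation, filters and strand setting nothing is given in the sources used here, so a gene and its antisense partner cannot be separated. As the file headers show, the authors deposited raw counts and RPKM per gene and per exon. Recomputing the authors' RPKM gave library totals of 60848394 reads for 813 and 63156235 for NT.

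All deposited gene counts are even, so they were divided by 2 and read as pairs. Dropping 46 repeated rows left 23352 genes. Exon reads were halved as well, because an exon can hold both mates of a pair. TMM gave the effective library sizes (edgeR 4.0.16, R 4.3.3; factors 1.05 for 813 and 0.954 for NT). The log2 fold used a prior of 0.5 pairs, and its interval is the 95% conditional binomial (Clopper-Pearson) interval (scipy 1.17.1). Ratios between genes used the conditional odds ratio. With 1 library a group no test or p-value was possible. The calculation was tested on simulated counts that held counting error alone, so that test does not bear on the spread between cultures. GC content came from GENCODE release 29 transcripts, and the trend was fitted with statsmodels 0.14.6. Other scalings included DESeq2 1.42.0.

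The members, the lists and the rules were chosen with earlier results of these data known. Named were all members, RUNX3, every called gene of the wider list and the gene of the highest mean RPKM in each role; the other genes were named after their values were seen. The value of 1 gene of the wider list, which was not called, is not reported here.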

Additional observations from a re-analysis of the deposited data

How the results depend on the processing

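No paired analysis was possible because each group has 1 library. HEY1 stayed higher, and DTX1 lower, under every scaling, prior and rule tried, with log2 folds from 2.54 to 2.90 and from -2.45 to -2.11. The filters asked for a level in either library. HEY1 passed that of 5 CPM through the 813 library alone and DTX1 through the NT library alone, so the filters were no check of these calls. NRARP (-1.56 to -1.12) was not called by the 3-fold rule. Of 73 alternative values of the 9 measured members, 57 lay within the counting interval and 16 outside it. Relative to TMM, plain totals raised the log2 fold by 0.14, which took NOTCH2 to 0.07 and JAG1 to 0.92. With the trend removed NOTCH2 was at -0.37 and JAG1 at 0.57. The 1.5-fold rule gave 2 higher members, 12 higher and 9 lower genes of the wider list, and 2428 higher and 1371 lower genes in all. The 3-fold rule gave 1 lower member, 3 higher and 1 lower of the wider list, and 311 and 136 in all. The wider list had 10 higher genes with plain totals, when 1330 of 12271 measured genes in all were higher. It had 10 with the authors' RPKM, when 1302 of 12254 in all were higher. With the trend removed 2 of the list were lower, when 274 of 11022 genes in all were lower. Higher genes made up 70.0% of all calls with TMM, 81.5% with plain totals and 81.02% with the authors' RPKM. With total exon reads 83.0% of the members' exon records had the direction of their gene, against 88.1% with the gene library sizes. Low counts limit HEY2, HEY1 in the NT library and DTX1 in the 813 library.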

Other observations

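Some neighbours of the Notch genes on the chromosome, listed within 20 kb in hg19, were read beside them after their values were seen. RASAL1, a Ras GTPase-activating protein gene that lies 790 bases from DTX1, had 1 pair in the 813 library, against 52 in the NT library, a log2 fold of -5.20 (-11.1 to -3.23). EXD3, which lies 4644 bases from NRARP, had 28 pairs in the 813 library, against 75 in the NT library, a log2 fold of -1.48 (-2.18 to -0.85). C9orf167, the other NRARP neighbour, had 42 pairs in the 813 library, against 72 in the NT library, a log2 fold of -0.85 (-1.44 to -0.28), and was not called. Of all measured genes 3.48% were called lower. JAG2 and its neighbour NUDT14, 4114 bases away, had log2 folds of -0.46 and -0.43 (-0.57 to -0.29). C20orf94, 14304 bases from JAG1, had 27 pairs in the 813 library and 17 in the NT library. Its log2 fold was 0.58 (-0.34 to 1.56), and it was not called. NCOA7, 19891 bases from HEY2, was higher with 96 pairs in the 813 library and 32 in the NT library, a log2 fold of 1.49 (0.92 to 2.13). Of the NOTCH1 neighbours, C9orf163, 8376 bases away, had a log2 fold of 0.22 (-0.51 to 0.97), and SEC16A, 11388 bases away, had -0.21 (-0.27 to -0.15). No gene was listed within 20 kb of HES1, HEY1 or NOTCH3, and the microRNA gene inside NOTCH1 had 0 pairs in both libraries.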
